A study of Mus musculus with 20 samples.

Results

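The myosin heavy chain and actin isoforms of the mouse left ventricle were examined on 20 arrays. They comprised 5 genes, Myh6, Myh7, Myh7b, Actc1 and Acta1, of 19937 genes that had at least 1 transcript cluster annotated to a single gene symbol. Each of the 5 had exactly 1 such cluster (10419900 for Myh6, 10419934 for Myh7, 10477673 for Myh7b, 10485982 for Actc1 and 10582592 for Acta1), so the choice of the brightest cluster per gene left none aside.

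All mice were male C57BL/6 animals, 2 months old, and RNA came from the whole left ventricle, with each array taken as 1 mouse. The FA-DOXO group (n = 6) received folic acid (FA) at 10 mg per day from 7 days before 1 intraperitoneal injection of doxorubicin (DOXO) at 20 mg/kg. The DOXO group (n = 6) received the same injection with a placebo diet, the FA-sham group (n = 4) folic acid with saline, and the sham group (n = 4) placebo with saline. Doxorubicin is an anthracycline chemotherapeutic that is toxic to heart muscle, and folic acid is a B vitamin. Ventricles were taken at day 10, so the FA-DOXO and DOXO arrays describe only animals that survived the injection until then. In such bulk tissue, fewer cardiomyocytes and less RNA of a gene per cardiomyocyte cannot be told apart.

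Myosin heavy chains are the motor proteins of the thick filament, and sarcomeric actins form the thin filament on which they pull. In the adult mouse ventricle the main heavy chain is the fast alpha isoform, encoded by Myh6. The slow beta isoform, encoded by Myh7, is that of the foetal mouse ventricle and of slow skeletal muscle, and its return in the adult ventricle is widely used as a sign of cardiac stress. Actc1 encodes cardiac alpha-actin, the main sarcomeric actin of the adult heart, and Acta1 encodes skeletal alpha-actin, which the heart also makes before birth. Myh7b encodes a further, slow-type myosin heavy chain.

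Myh6 and Myh7 are neighbours on the minus strand of chromosome 14 (RefSeq, GRCm38.p6), at chr14:54941921-54968017 and chr14:54970684-54994626, with 2666 bases between them. Myh7b lies at chr2:155611243-155634307, Actc1 at chr2:114047282-114052875 and Acta1 at chr8:123891758-123894775. The 3 myosin genes each enclose a microRNA gene, Mir208a in Myh6, Mir208b in Myh7 and Mir499 in Myh7b. Their mature products are shown because they are cut from transcripts of the genes examined, with the seed (bases 2 to 8) in capitals.
mmu-miR-208a-3p: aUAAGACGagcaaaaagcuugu
mmu-miR-208b-3p: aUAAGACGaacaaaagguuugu
mmu-miR-499-5p: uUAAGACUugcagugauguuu
The seed UAAGACG was shared by mmu-miR-208a-3p and mmu-miR-208b-3p and by no other of 1738 mature mouse miRNAs in the RefSeq table, and UAAGACU occurred only in mmu-miR-499-5p. Counted from the 5′ end, the miR-208 pair differed at 3 of 22 positions (G10A, A16G and C18U, miR-208a first), all outside the seed.

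The 250 bases before the outermost start in the RefSeq promoter table are shown for the neighbouring heavy chain genes, of which 1 set the DOXO-treated mice apart and the other did not. Capitals mark the M-CAT motif CATTCC, read on either strand, which is bound by TEAD factors.
Myh6: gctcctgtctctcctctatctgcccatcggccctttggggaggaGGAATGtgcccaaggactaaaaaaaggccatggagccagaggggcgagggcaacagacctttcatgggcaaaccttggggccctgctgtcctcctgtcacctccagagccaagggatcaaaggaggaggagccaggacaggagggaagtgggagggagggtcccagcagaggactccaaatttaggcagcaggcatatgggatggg
Myh7: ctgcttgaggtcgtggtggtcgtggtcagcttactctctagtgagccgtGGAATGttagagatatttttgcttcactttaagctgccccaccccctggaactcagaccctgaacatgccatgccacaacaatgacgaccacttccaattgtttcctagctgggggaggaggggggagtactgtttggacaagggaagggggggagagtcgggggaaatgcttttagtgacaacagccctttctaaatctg
These runs span chr14:54966608-54966857 and chr14:54994627-54994876 on the minus strand. The Myh6 run lies within the gene interval given above, which reaches further upstream than the start in the promoter table, whereas the Myh7 run begins right outside its gene. Each held 1 M-CAT motif, beginning 206 bases before the start in Myh6 and 201 bases before it in Myh7. In the windows searched, 250 bases before to 50 bases after a start, an M-CAT motif was present in 3 of the 5 genes (Myh6, Myh7 and Acta1) and in 14.7% of 32851 windows of all genes. A second Myh7 window, for a start further downstream, held none. The CArG box, the motif of serum response factor, was present in Actc1 and Acta1 and in 1.63% of all windows, and the letters TATAAA in Myh6, Actc1 and Acta1 and in 13.6%. The E-box CANNTG was present in all 5 genes and in 72.3% of windows. Motifs of different kinds were counted independently of any overlap, and these counts describe letters only.

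Values were log2 signals as deposited, and levels were not ranked between genes, since their probes differ. Differences between genes of 1 array are used only to compare mice. The arrays differed in how far all their signals spread. The SD of the log2 signals of an array averaged 1.037 in FA-DOXO mice (range 0.863 to 1.337), 1.127 in DOXO mice (0.907 to 1.499), 0.957 in FA-sham mice (0.877 to 1.137) and 1.266 in sham mice (0.941 to 1.501). Arrays with an SD above 1.1 are called wide here, and the others narrow. The 8 wide arrays were those of FA-DOXO mice 5 and 6, DOXO mice 1 and 5, FA-sham mouse 4 and sham mice 1, 2 and 3. With the group as a further term, the array SD was associated with the signal of 28399 of 34760 clusters (limma adjusted p below 0.05), or 81.7%. It was associated with 4 of the 5 genes, with log2 slopes per unit of array SD of 8.13 for Myh6, 5.30 for Myh7, 9.72 for Actc1 and 4.32 for Acta1. The slope of Myh7b was -0.41 (limma adjusted p = 0.0917). No 2 arrays were identical.

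Markers of the ventricular cardiomyocyte moved with the array SD as well. The mean log2 signal of the 12 markers, among them Tnnt2, Tnni3 and Myl2, ranged between 10.93 and 12.45 on wide arrays and between 7.79 and 10.41 on narrow ones. All 12 lay above the array median on every wide array, and 11 of 12 on every narrow array. The mean of these markers ranged between 7.92 and 11.74 in FA-DOXO, 8.46 and 12.45 in DOXO, 7.79 and 10.96 in FA-sham and 9.07 and 12.45 in sham mice. The mean of the 8 skeletal muscle markers, among them Tnnt3 and Mylpf, stayed between 6.06 and 6.76 in the 3 groups other than sham and between 5.85 and 6.75 in sham mice. Atrial markers (4 genes, Nppa included) ranged between 6.96 and 8.21 over all arrays. The part that cell makeup or RNA quality has in the array spread was not tested.

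Myh7 was the gene of the 5 that set the DOXO-treated mice apart. In FA-DOXO mice, Myh7 had a lowest log2 signal of 7.86, a median of 8.63 and a highest of 11.87. In DOXO mice, Myh7 was between 7.64 and 13.01, with a median of 8.62. It was 7.33, 7.07, 7.08 and 7.36 in FA-sham mice 1 to 4, and 7.01, 7.17, 7.42 and 7.24 in sham mice 1 to 4. All 12 FA-DOXO and DOXO mice lay above all 8 FA-sham and sham mice, with the lowest DOXO mouse at 7.64 and the highest sham mouse at 7.42. Of the 34760 clusters, 7 (0.0201%) separated these mice completely in this direction, Myh7 among them. For DOXO alone versus sham, 0.213% of clusters had every DOXO array above every sham array, and for FA-DOXO versus FA-sham 0.371%.

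**Figure D1:**
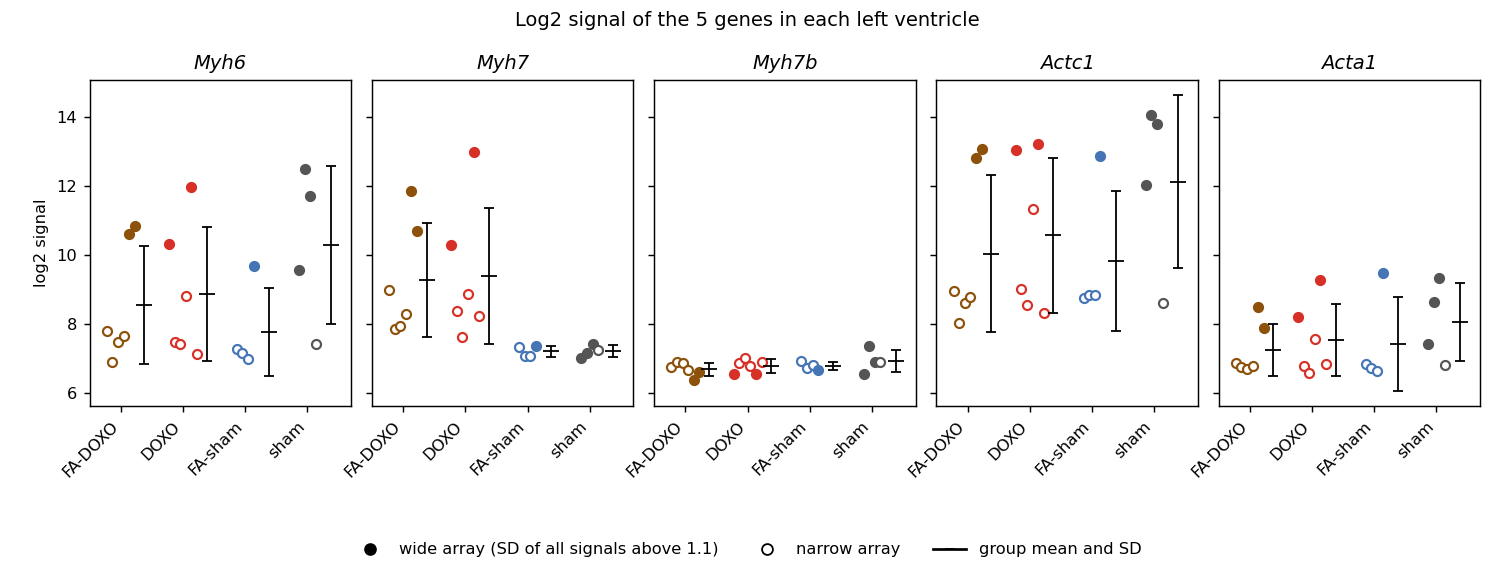
Log2 signal of each of the 5 genes (vertical axis) in every mouse, by group, where points are filled on wide arrays and empty on narrow ones and black bars give the group mean ± SD. Myh7 lies between 7.64 and 13.01 in the 12 FA-DOXO and DOXO mice and between 7.01 and 7.42 in the 8 FA-sham and sham mice, whereas the groups overlap for Myh6, Myh7b, Actc1 and Acta1.

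Since the separation was complete over all arrays, it necessarily held within each kind of array, and only its size there is described. On wide arrays, Myh7 was 11.87 and 10.70 in FA-DOXO mice 5 and 6, 10.29 and 13.01 in DOXO mice 1 and 5, 7.36 in FA-sham mouse 4, and 7.01, 7.17 and 7.42 in sham mice 1 to 3. On narrow arrays it ranged between 7.86 and 8.98 in FA-DOXO mice, 7.64 and 8.87 in DOXO mice and 7.07 and 7.33 in FA-sham mice, and the single narrow sham array had 7.24. The DOXO-treated mice were higher by 4.23 (SE 0.62, 18.8-fold, 4 versus 4 arrays) among wide arrays and by 1.09 (SE 0.18, 2.12-fold, 8 versus 4 arrays) among narrow ones. Whether Myh7 stood above background in FA-sham and sham mice was not tested, so these are folds of the deposited signal. In the DOXO-treated mice, Myh7 was 3.20 (SE 0.64) higher on wide than on narrow arrays. In FA-sham and sham mice together, the same difference was 0.06 (SE 0.11), so there Myh7 was as low on wide arrays as on narrow ones. Myh6, by comparison, was 3.36 (SE 0.42) higher on wide arrays in DOXO-treated mice and 3.67 (SE 0.74) higher in FA-sham and sham mice.

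**Figure D2:**
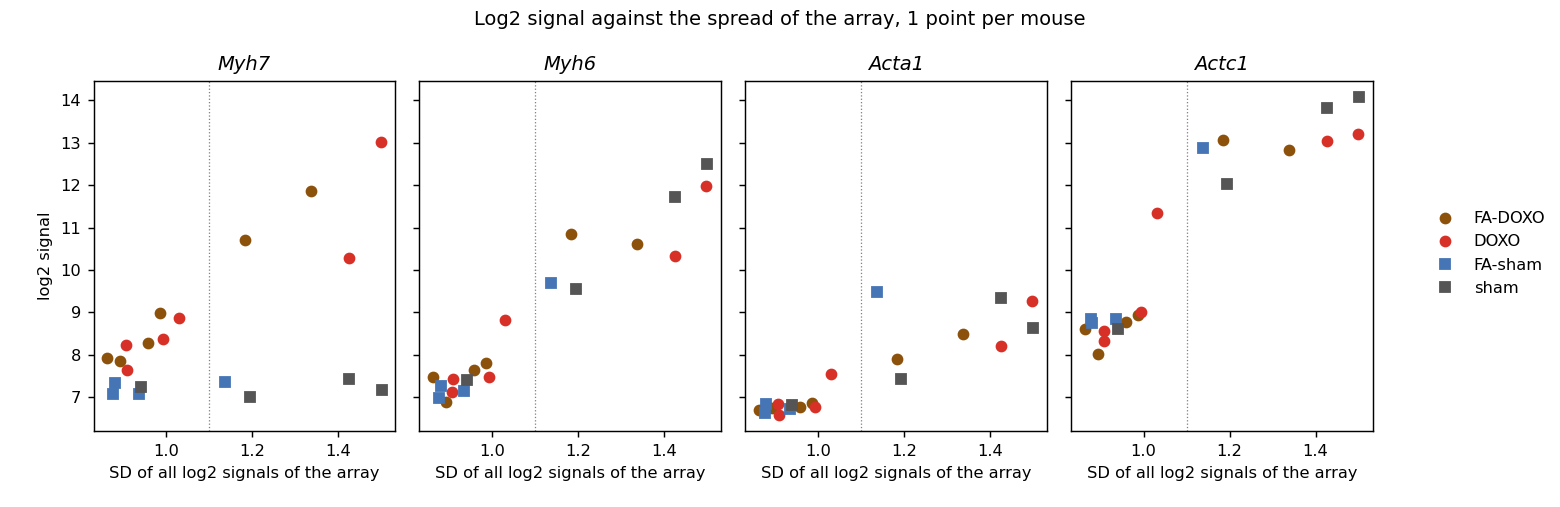
Log2 signal of Myh7, Myh6, Acta1 and Actc1 (vertical axis) against the SD of all log2 signals of the array (horizontal axis), 1 point per mouse, with circles for FA-DOXO and DOXO mice, squares for FA-sham and sham mice and a dotted line at 1.1 between narrow and wide arrays. Myh6, Acta1 and Actc1 climb with the array SD in every group, while Myh7 climbs in the FA-DOXO and DOXO mice and stays between 7.01 and 7.42 in the FA-sham and sham mice.

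Group means of Myh7 were 9.27 ± 1.65 in FA-DOXO mice, 9.40 ± 1.98 in DOXO mice, 7.21 ± 0.15 in FA-sham mice and 7.21 ± 0.17 in sham mice (SD). In the order of these levels, DOXO and FA-DOXO overlapped at the top and FA-sham and sham at the bottom. The log2 difference of DOXO versus sham was 2.19 (SE 0.87, 4.56-fold) and that of FA-DOXO versus FA-sham 2.06 (SE 0.87, 4.17-fold). In the exact two-sided permutation test over the arrays of each pair of groups, chosen after the data had been seen, both had p = 0.00952, the smallest that 6 versus 4 mice can give. In limma, over all 34760 clusters, the unadjusted p was 0.0211 and 0.0288 and the adjusted p 0.647 and 0.983. Neither comparison therefore passed after adjustment, with an SD of 1.65 in FA-DOXO and 1.98 in DOXO mice. Of the 8 skeletal muscle markers, 0 passed the unadjusted p of 0.01 in DOXO versus sham, with a median difference of 0.24 beside 0.10 over all clusters. Tnni2, fast skeletal troponin I, was lowest in p at a log2 difference of 0.45 (limma adjusted p = 0.647). These markers are genes of fast muscle, so they cannot show whether slow skeletal muscle, which makes the beta chain, had a part in Myh7, and this was not tested.

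Averaged over both diets, which was added after the data had been seen, Myh7 was higher in DOXO-treated mice by a log2 difference of 2.12 (SE 0.61, 4.36-fold). The exact permutation p, reassigning DOXO within each diet, was 4.5e-05, the smallest possible, against a limma p of 0.00271 and an adjusted p of 1.00. With the array SD as a covariate in limma, the averaged difference was 2.28 (SE 0.38, adjusted p = 0.0203) and that of DOXO versus sham 2.92 (SE 0.55, adjusted p = 0.0399), while FA-DOXO versus FA-sham was at 1.64 (SE 0.54, adjusted p = 0.882). Myh7 was then the only one of the 5 genes called, where 0.227% and 0.17% of all clusters were called in the first 2 of these contrasts. With the kind of array, wide or narrow, as a block, the averaged difference was 2.47 (SE 0.43, limma adjusted p = 0.0336, with 0.0547% of clusters called) and that of DOXO versus sham 3.05 (adjusted p = 0.248). Such fits give all groups 1 shared slope or step for the array spread, which the flat Myh7 values of the FA-sham and sham mice did not show. Set against the mean of the 12 cardiomyocyte markers of the same array, Myh7 lay 3.06 (SE 0.83) higher in DOXO mice than in sham mice with no overlap (exact permutation p = 0.00952), and 1.22 (SE 0.73) higher in FA-DOXO than in FA-sham mice with overlap (p = 0.0952). These values include differences of the markers themselves. The marker mean was 10.28 in DOXO and 11.15 in sham mice, which raised the first value. It was 9.81 in FA-DOXO and 8.97 in FA-sham mice, which lowered the second.

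Folic acid was not accompanied by a detectable difference in Myh7. FA-DOXO versus DOXO was at -0.13 (SE 0.78, exact permutation p = 0.913), with 7.86 to 11.87 in FA-DOXO mice and 7.64 to 13.01 in DOXO mice. FA-sham versus sham was at 0.00 (SE 0.11 from these 2 groups alone, exact permutation p = 1.00), with the means of both groups at 7.21. In the fits with a term for the array spread it moved to 1.63 (SE 0.65, limma adjusted p = 0.571) with the array SD as a covariate and to 1.04 (SE 0.69, limma adjusted p = 0.456) with the kind of array as a block, and relative to the cardiomyocyte markers it was 2.18 (SE 1.03, exact permutation p = 0.0857). The difference of the DOXO effects between the diets, the interaction, was -0.13 (SE 1.23, limma adjusted p = 0.953), and -1.28 (SE 0.78, limma adjusted p = 0.649) with the array SD as a covariate. The SEs of FA-DOXO versus DOXO and of the interaction leave room for differences of more than 1 log2 unit in either direction.

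Myh6, the alpha heavy chain, overlapped between all groups. It had a lowest log2 signal of 6.90, a median of 7.72 and a highest of 10.84 in FA-DOXO mice, and 7.13, 8.15 and 11.99 in DOXO mice. In FA-sham mice 1 to 4 it was 7.26, 7.15, 6.98 and 9.69, and in sham mice 1 to 4 it was 9.56, 12.50, 11.72 and 7.41. In every group the high values were those of the wide arrays. Group means were 8.54 ± 1.72 in FA-DOXO, 8.86 ± 1.94 in DOXO, 7.77 ± 1.29 in FA-sham and 10.30 ± 2.29 in sham mice (SD), so that sham was highest and FA-sham lowest, with every neighbour in that order within its spread. DOXO versus sham was at -1.44 (SE 1.11, limma adjusted p = 0.647), and at -0.31 (SE 0.32) with the array SD as a covariate. FA-sham versus sham was at -2.53 (SE 1.21, limma adjusted p = 0.161), where 3 of 4 sham arrays and 1 of 4 FA-sham arrays were wide, and at -0.02 (SE 0.38) with the covariate. Without sham mouse 4, whose array was the only narrow one of its group, FA-sham versus sham was at -3.49 (limma adjusted p = 0.0349), and 42.6% of all clusters then passed.

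Myh7b was the steadiest gene of the 5. Its log2 signal ranged between 6.37 and 6.88 in FA-DOXO, 6.54 and 7.02 in DOXO, 6.65 and 6.91 in FA-sham and 6.56 and 7.35 in sham mice, with sham mouse 2 highest. On every array it lay between the 47.3 and the 78.0 percentile of all clusters, and no detection call was at hand to say whether it stood above background. The differences were -0.15 (SE 0.14) for DOXO versus sham and -0.08 (SE 0.14) for FA-DOXO versus FA-sham. The microRNA genes of the myosin introns also varied little between groups, but both lay below the array median on every array, again without a detection call. The slope per unit of array SD was -1.08 for Mir499 (limma adjusted p = 5.6e-06) and -0.26 for Mir208a (limma adjusted p = 0.178). Mir208a was between 5.06 and 5.65 over all 20 arrays and Mir499 between 5.29 and 6.27. DOXO versus sham was at -0.04 for Mir208a and at 0.01 for Mir499, and Mir208b, inside Myh7, had no cluster of its own.

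The within-array difference of the beta and alpha heavy chains was then compared. Its size is not an isoform ratio, as the probes of the genes differ. Its shift between groups also depended on the kind of array, which was unevenly spread over the groups. Myh7 minus Myh6 ranged between -0.14 and 1.26 in FA-DOXO mice (median 0.80) and between -0.04 and 1.09 in DOXO mice (median 0.55). It was 0.06, -0.08, 0.10 and -2.34 in FA-sham mice 1 to 4 and -2.55, -5.34, -4.30 and -0.18 in sham mice 1 to 4. All 6 DOXO mice were above all 4 sham mice, while 5 of the 6 FA-DOXO mice were above all 4 FA-sham mice. The mouse that was not, FA-DOXO mouse 6 at -0.14, had a wide array.

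Group means of Myh7 minus Myh6 were 0.73 ± 0.52 in FA-DOXO, 0.54 ± 0.52 in DOXO, -0.56 ± 1.18 in FA-sham and -3.09 ± 2.26 in sham mice (SD). The shift was 3.63 (SE 1.15) for DOXO versus sham, with an exact permutation p of 0.00952, the smallest possible, and 0.0952 after Benjamini-Hochberg adjustment over 10 tests (2 differences in 5 comparisons). For FA-DOXO versus FA-sham it was 1.29 (SE 0.63, exact p = 0.0381, adjusted 0.190). FA-sham versus sham was at 2.53 (SE 1.27, exact p = 0.0571, adjusted 0.190), and FA-DOXO versus DOXO at 0.19 (SE 0.30, exact p = 0.526). None of the 10 tests passed after adjustment, 2 had an unadjusted p under 0.05, and the interaction was at -2.34 (exact permutation p = 0.160, adjusted 0.320).

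The sham values of this difference followed the array. In FA-sham and sham mice the 4 wide arrays had -3.63 ± 1.44 and the 4 narrow ones -0.02 ± 0.13 (SD), since Myh6 was high on wide arrays and Myh7 was not. In FA-DOXO and DOXO mice it was 0.53 ± 0.72 on the 4 wide and 0.68 ± 0.41 on the 8 narrow arrays. The DOXO-treated mice were thus 4.16 (SE 0.80) above the others among wide arrays and 0.71 (SE 0.16) among narrow arrays. Between the sham groups, wide arrays had -2.34 in FA-sham mouse 4 and -5.34 to -2.55 in sham mice, and narrow arrays had -0.08 to 0.10 in FA-sham mice and -0.18 in sham mouse 4. With the array SD as a covariate, DOXO versus sham was at 3.18 (permutation p adjusted 0.0314) and FA-sham versus sham at -0.25 (adjusted 0.483). With the kind of array as a block, DOXO versus sham was at 3.02 (permutation p adjusted 0.160) and did not pass, and both fits take the array term to be the same in all groups, while wide minus narrow was -0.16 (SE 0.39) in FA-DOXO and DOXO mice and -3.61 (SE 0.72) in FA-sham and sham mice.

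**Figure D3:**
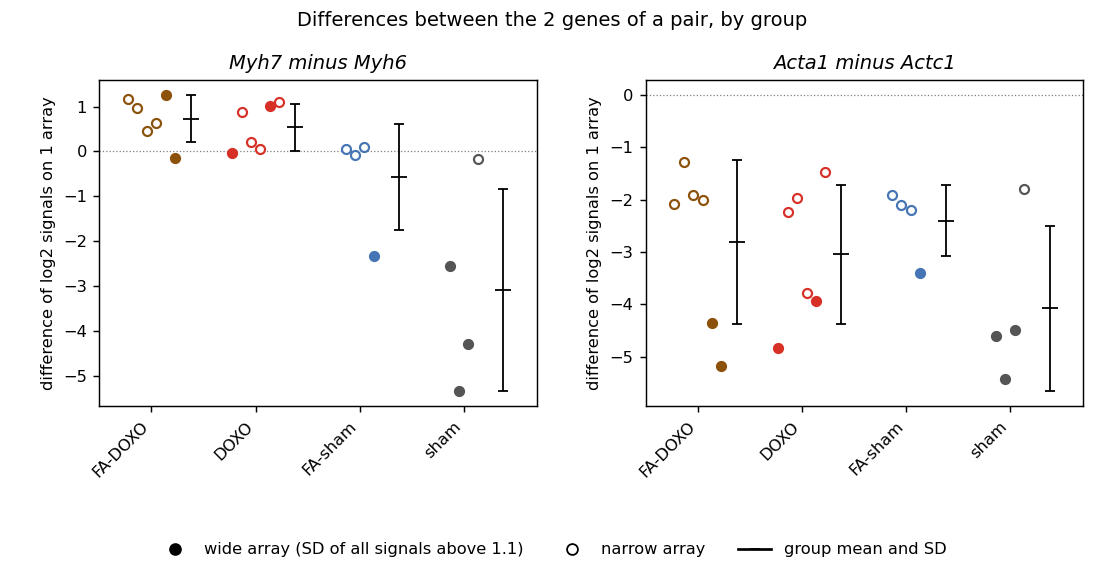
Difference of log2 signals on 1 array (vertical axis) for Myh7 minus Myh6 (left) and Acta1 minus Actc1 (right) in each mouse, by group, where points are filled on wide arrays and empty on narrow ones and black bars give the group mean ± SD. Myh7 minus Myh6 is between -0.14 and 1.26 in FA-DOXO and DOXO mice on both kinds of array and between -5.34 and -2.34 on the wide arrays of FA-sham and sham mice, and Acta1 minus Actc1 is lower on wide arrays in every group.

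Actc1, cardiac alpha-actin, gave no separation of groups. Its lowest, median and highest log2 signals were 8.03, 8.86 and 13.07 in FA-DOXO mice and 8.32, 10.18 and 13.21 in DOXO mice. It was 8.75, 8.84, 8.83 and 12.88 in FA-sham mice 1 to 4 and 12.03, 14.08, 13.82 and 8.61 in sham mice 1 to 4. All 8 wide arrays were at 12.03 or higher and all 12 narrow arrays at 11.33 or lower, whatever the group. DOXO versus sham was at -1.56 (SE 1.36, limma adjusted p = 0.649), and FA-DOXO versus DOXO at -0.54 (SE 1.22).

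Acta1, skeletal alpha-actin, overlapped as well. It was between 6.70 and 8.48 in FA-DOXO mice (median 6.82) and between 6.58 and 9.27 in DOXO mice (median 7.20). In FA-sham mice 1 to 4 it was 6.84, 6.73, 6.63 and 9.47, and in sham mice 1 to 4 it was 7.42, 8.64, 9.33 and 6.82. On narrow arrays it stayed within 6.58 and 7.56 in all groups, and on wide arrays within 7.42 and 9.47. Group means were 7.24 ± 0.76 in FA-DOXO, 7.54 ± 1.04 in DOXO, 7.42 ± 1.37 in FA-sham and 8.05 ± 1.14 in sham mice (SD). DOXO versus sham was at -0.52 (SE 0.64, limma adjusted p = 0.697) and turned to 0.08 (SE 0.30) with the array SD as a covariate, and FA-DOXO versus DOXO was at -0.29 (SE 0.57) and turned to 0.10 (SE 0.27).

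The difference of the actins did not part the groups. Acta1 minus Actc1 averaged -2.80 ± 1.57 in FA-DOXO, -3.04 ± 1.33 in DOXO, -2.41 ± 0.68 in FA-sham and -4.08 ± 1.58 in sham mice (SD). It was -4.58 ± 0.54 on wide and -2.10 ± 0.75 on narrow arrays of FA-DOXO and DOXO mice, and -4.49 ± 0.83 on wide and -2.005 ± 0.19 on narrow arrays of FA-sham and sham mice. Within wide arrays the DOXO-treated mice were at -0.09 (SE 0.50) relative to the others, and within narrow arrays also at -0.09 (SE 0.28). Over all arrays, the shift was 1.04 for DOXO versus sham (exact permutation p = 0.248), -0.39 for FA-DOXO versus FA-sham (p = 0.676), 1.67 for FA-sham versus sham (p = 0.143) and 0.24 for FA-DOXO versus DOXO (p = 0.823), with an interaction of -1.43 (p = 0.277).

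**Figure D4:**
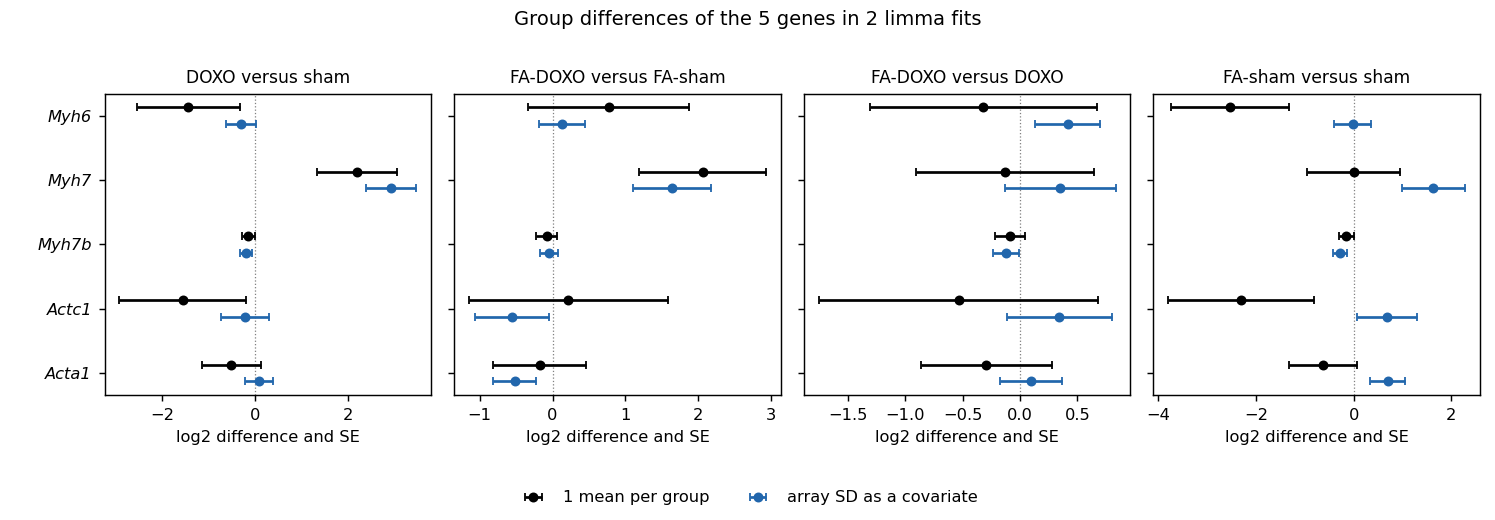
Log2 difference and SE (horizontal axis) of the 5 genes in 4 comparisons, from limma with 1 mean per group (black) and with the array SD as a covariate (blue); the horizontal scale differs between panels. Myh7 is at 2.19 and 2.92 in DOXO versus sham and at 2.06 and 1.64 in FA-DOXO versus FA-sham, and the SEs of Myh6, Actc1 and Acta1 shrink with the covariate.

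Of the 5 genes, 0 passed a limma adjusted p of 0.05 in any of the 5 comparisons. The shares of all clusters that passed were 0.00288% for DOXO versus sham, 0.00288% for FA-DOXO versus FA-sham and 0% for FA-DOXO versus DOXO, FA-sham versus sham and the interaction, and 0.0115% for DOXO averaged over both diets. At the unadjusted p of 0.01 used by the study's methods, again 0 of 5 passed in each of the 5 comparisons. Of all clusters, 1.05% passed it in DOXO versus sham, 0.268% in FA-DOXO versus FA-sham, 0.158% in FA-DOXO versus DOXO, 4.35% in FA-sham versus sham and 0.463% in the interaction. Averaged over both diets, 1 of 5 passed, Myh7, where 0.506% of clusters did. At an unadjusted p under 0.05, Myh7 passed in DOXO versus sham and in FA-DOXO versus FA-sham, and no gene of the 5 in the other 3 comparisons. The share of all clusters under that p was 5.73% in DOXO versus sham, 1.25% in FA-DOXO versus FA-sham, 1.31% in FA-DOXO versus DOXO, 31% in FA-sham versus sham and 5.19% in the interaction.

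Across the 20 arrays, Myh6, Actc1 and Acta1 followed each other, with Pearson's r of 0.97 for Myh6 and Actc1, 0.92 for Actc1 and Acta1 and 0.90 for Myh6 and Acta1. Myh7 stood further off, at 0.48 with Myh6. These are descriptions over 20 arrays that share the array spread. Among 19932 other genes, those most like Myh7 were Apod, encoding apolipoprotein D (r = 0.94), Ifitm1, an interferon-induced membrane protein (0.93), and Serpina3n, an acute-phase serine protease inhibitor (0.91). After the group mean and the array SD had been taken out of both genes, Ifitm1, the complement gene C4b and Tkfc were closest to Myh7 (0.88, 0.88 and 0.87). The genes most like Myh6 were Lbh, Dlat, a subunit of pyruvate dehydrogenase, and Hrc, a calcium-binding protein of the sarcoplasmic reticulum (each 0.99). Those most like Actc1 were Sucla2, Emcn and Ndufa9 (each 0.99), and those most like Acta1 were Acads, Parp3 and Acot7 (each 0.95). For Myh7b they were Grip2, 9530091C08Rik and Mgat5 (0.86, 0.85 and 0.85).

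The other myosin heavy chains and actins were read in the same fits. Of the 7 further sarcomeric heavy chains with a cluster, those of embryonic (Myh3), perinatal (Myh8), adult fast (Myh1, Myh2 and Myh4) and extraocular or other muscle (Myh13 and Myh15), 0 passed the unadjusted p of 0.01 in any of the 5 comparisons. Myh7 passed it in none of these 5 either, though it did when averaged over both diets. The log2 signals of the 7 further heavy chains all lay between 5.03 and 7.04, and their means were lower on the 8 wide than on the 12 narrow arrays, as for Myh3 with 5.81 and 6.33. The median of the 7 differences of DOXO versus sham was 0.25, beside 0.10 over all clusters. In FA-sham versus sham, 6 of the 7 were higher at an unadjusted p under 0.05, with a median of 0.52 beside 0.19 over all clusters, and 0 after limma adjustment. In that comparison 31% of all clusters passed the same unadjusted p, and 1 of 4 FA-sham arrays and 3 of 4 sham arrays were wide. Smooth muscle and non-muscle heavy chains (Myh9, Myh10, Myh11 and Myh14) were at a median of 0.05 in DOXO versus sham, with 0 of 4 at an unadjusted p under 0.05.

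Of the 4 other actins with a cluster, 0 passed the unadjusted p of 0.01. Actb, cytoplasmic beta-actin, often used as a loading control, averaged 9.28 ± 1.71 in FA-DOXO, 9.74 ± 1.92 in DOXO, 8.54 ± 1.80 in FA-sham and 10.89 ± 2.05 in sham mice (SD), and 11.66 on wide against 8.21 on narrow arrays. Acta2, smooth muscle alpha-actin, averaged 7.36 ± 1.22 in FA-DOXO, 7.49 ± 1.28 in DOXO, 6.83 ± 1.03 in FA-sham and 8.52 ± 1.26 in sham mice. Actg2, the enteric smooth muscle actin, and Actbl2 stayed between 5.55 and 6.66. In DOXO versus sham, the 4 had a median difference of -0.47, beside 0.10 over all clusters.

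Partners of the thick filament, such as myosin light chains, myomesins and titin, had a median difference of -0.38 in DOXO versus sham (14 genes), and partners of the thin filament, such as troponins and tropomyosin, -0.75 (18 genes). Of the thin filament list 1 passed the unadjusted p of 0.01 and fell short of adjustment, Lmod3, a leiomodin that nucleates actin filaments, at -1.40 (limma adjusted p = 0.647). Of all clusters, 1.05% passed that unadjusted p. With the array SD as a covariate, the medians were 0.18 and 0.16, beside 0.04 over all clusters. In that fit Trim54, a muscle-specific RING finger protein, differed by 0.90 between DOXO and sham mice, higher in DOXO (limma adjusted p = 0.0444), and Trim63, the ubiquitin ligase MuRF1 that targets myosin heavy chain, was at 0.59 (adjusted p = 0.157). There, 0.17% of all clusters passed after adjustment.

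None of the 28 regulators of cardiac myosin and actin genes, such as thyroid hormone receptors, TEAD factors, Mef2 factors and Srf, passed the unadjusted p of 0.01 in any comparison. Their median difference of DOXO versus sham was -0.27. At an unadjusted p under 0.05 only Hdac9, a class II histone deacetylase, was counted, at -0.27 (limma adjusted p = 0.647). Of all clusters, 5.73% were under that p in this comparison. Of 7 further genes listed for expression in the foetal heart, the lowest p in DOXO versus sham was that of Tnnt1, slow skeletal troponin T, at 0.26 (limma adjusted p = 0.647). Averaged over both diets with the array SD as a covariate, Ankrd1, a stress-induced ankyrin repeat protein of the sarcomere, was at 1.41 (limma adjusted p = 0.255). Without the covariate, Ankrd1 averaged 9.95 ± 2.31 in FA-DOXO, 10.48 ± 2.47 in DOXO, 7.95 ± 2.23 in FA-sham and 10.23 ± 2.29 in sham mice (SD). All 4 neutrophil markers passed the unadjusted p of 0.01 in DOXO versus sham, where 1.05% of all clusters did. They were higher in DOXO mice, with S100a8 at 1.32 and S100a9 at 0.74 (limma adjusted p = 0.647 each). Their mean ranged between 6.46 and 7.92 in DOXO and between 5.57 and 6.36 in sham mice. It averaged 6.76 in FA-DOXO, 7.00 in DOXO, 6.45 in FA-sham and 5.95 in sham mice, so sham was also below FA-sham, and 3 of the 4 sham arrays were wide. Whether neutrophil numbers differed, and their part in the signals of the 5 genes, was not tested.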

How the data were processed

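RNA of 20 left ventricles was hybridised to Affymetrix Mouse Gene ST arrays. The authors deposited log2 signals of 34760 transcript clusters, made, per the labels, with R 2.14.2 and Bioconductor. Their background correction, normalization and probe summary, and the genome build of the platform annotation, were not given in the sources used here. That annotation gave 1 gene symbol to 21640 clusters, several to 1321 and none to 11799, and only clusters with 1 symbol were named. Group, diet and injection came from the labels, which number the arrays without stating outright that each is a separate mouse. If they are not, the p-values measure only the spread between these samples, which may be technical. The number of arrays limits the precision.

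The signals were used without further normalization. All 34760 clusters were fitted with limma 3.58.1 (R 4.3.3), with 1 mean per group over all 20 arrays, and p-values were adjusted by Benjamini-Hochberg over all clusters. The 2 isoform differences, and single values where stated, were compared with exact two-sided permutation tests (SciPy 1.17.1), and with 100000 permutations of residuals where the array SD was a covariate. The limma code was tested on simulated data in which 200 clusters were changed by known amounts. Other normalizations, covariates, blocks, filters and subsets of arrays were tried. The 5 genes, their named partners in 16 lists and the alternatives were chosen with earlier results of these data known. Of the other genes, those named by rule were all other myosin heavy chains and actins, the 2 lowest in p of a list in a comparison (the microRNAs of the myosin introns being 1 such list), and the 3 most alike to each of the 5 by Pearson's r. Sequences were taken from RefSeq tables (GRCm38.p6). Figures were drawn with matplotlib 3.10.9.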

Additional observations from a re-analysis of the deposited data

Results flagged for a closer look

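FA-sham mouse 4 lay far from the other 3 mice of its group in 4 of the values examined. Its log2 signal was 9.69 for Myh6, with the next highest mouse at 7.26. For Actc1 it had 12.88, with the next at 8.84, and for Acta1 9.47, with the next at 6.84. Its Myh7 minus Myh6 difference was -2.34, with the next lowest mouse at -0.08. In each case the gap to the nearest mouse, as a share of the whole range of the group (0.90 for Myh6, 0.98 for Actc1, 0.92 for Acta1 and 0.92 for the difference), exceeded Dixon's 95% critical value for 4 samples. Its array was the only wide one of the FA-sham group. In all, 28 sets of values of 1 group were examined in this way, and chance alone exceeds the critical value in about 1 of 20. The 4 values come from 1 array and are not independent, and their cause was not tested. Without this mouse, FA-DOXO versus FA-sham was at 0.51 for Acta1, against -0.18 with it.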

How the results depend on the processing

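The 20 arrays and the wide spread between mice limit what these data can show. No detection calls or probe-level signals were analysed here, so low signals such as Myh7b, Mir208a and, in FA-sham and sham mice, Myh7 could not be set against background. The step between wide and narrow arrays exceeded the group differences of Myh6, Actc1 and Acta1, wide arrays were unevenly spread over the groups, and none of these 3 genes kept its direction in DOXO versus sham under every setting. The alternatives were chosen with earlier results of these data known. The brightest of several clusters of a gene had no alternative, since each gene had 1, and Acta1 minus Gapdh was not run, as Gapdh had no cluster with a single symbol.

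Myh7 was higher in DOXO-treated mice, for DOXO versus sham and for FA-DOXO versus FA-sham, under every setting run. Filtering on the mean signal, trended and robust moderation and fitting only the groups compared changed no direction and no call. Of 484 values recomputed under settings other than leaving out an array, 393 kept direction and side of the threshold, 66 turned sign, 19 came to pass the threshold and 6 were counts that moved by over 1.5 times. All differences below are on the log2 scale.

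With the array SD as a covariate, 1 of 5 genes and 0.17% of all clusters passed in DOXO versus sham, against 0 genes and 0.00288% of clusters without it. Myh7 minus Myh6 in DOXO versus sham was then at 3.18 (adjusted permutation p = 0.0314), against 3.02 with the kind of array as a block (adjusted permutation p = 0.160). Myh7 in FA-sham versus sham moved to 1.63 with the covariate and to 1.04 with that block, against 0.00 without them. With this covariate the sign turned in DOXO versus sham for Acta1 at 0.080, and in FA-DOXO versus DOXO for Myh6 at 0.42, Myh7 at 0.35, Actc1 at 0.34, Acta1 at 0.10 and Acta1 minus Actc1 at -0.24. It also turned in FA-DOXO versus FA-sham for Actc1 at -0.56 and Acta1 minus Actc1 at 0.17, and in FA-sham versus sham for Actc1 at 0.69, Acta1 at 0.69, Myh7 minus Myh6 at -0.25 and Acta1 minus Actc1 at -0.059. Other turns were in the interaction for Actc1 at -0.34 and Acta1 at -0.60. With the kind of array, wide or narrow, as a block, the sign turned in DOXO versus sham for Actc1 at 0.19 and Acta1 at 0.24, and in FA-DOXO versus FA-sham for Actc1 at -0.13. It also turned in FA-sham versus sham for Acta1 at 0.27, and in the interaction for Actc1 at -0.33 and Acta1 at -0.57. On narrow arrays only, the sign turned in DOXO versus sham for Myh6 at 0.30, Actc1 at 0.69, Acta1 at 0.12 and Acta1 minus Actc1 at -0.58, and in FA-DOXO versus FA-sham for Actc1 at -0.22, Acta1 at 0.035 and Acta1 minus Actc1 at 0.25. Other turns were in FA-sham versus sham for Myh7 at -0.079, Actc1 at 0.19 and Acta1 minus Actc1 at -0.28, and in the interaction for Myh7 at 0.067, Myh7b at -0.024, Actc1 at -0.91 and Acta1 at -0.080. On wide arrays only, the sign turned in DOXO versus sham for Acta1 at 0.27, and in FA-sham versus sham for Acta1 at 1.01. It also turned in the interaction for Acta1 at -1.55, and in FA-DOXO versus DOXO for Acta1 minus Actc1 at -0.37. The array SD was associated with 2 of the 5 genes among wide arrays and with 1 among narrow arrays, against 4 over all arrays, with fewer arrays in each fit. Over all arrays, 81.7% of all clusters were associated with it. The shares within wide and within narrow arrays were not counted, so these counts cannot be set against them.

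After quantile normalization, the sign turned in FA-DOXO versus FA-sham for Actc1 at -0.16, and in the interaction for Myh7b at -0.013. After median centring alone, the sign turned in FA-sham versus sham for Myh7 at -0.23, and in the interaction for Myh7 at 0.043. With arrays centred on their medians and scaled to equal SD, the sign turned in FA-DOXO versus DOXO for Myh7 at 0.088, and in FA-DOXO versus FA-sham for Actc1 at -0.071. Other turns were in FA-sham versus sham for Myh7 at -0.040, and in the interaction for Myh7 at 0.13. Relative to the mean of the cardiomyocyte markers, the sign turned in DOXO versus sham for Myh7b at 0.72 and Acta1 at 0.35, and in FA-DOXO versus DOXO for Myh6 at 0.16, Myh7 at 0.35, Myh7b at 0.39 and Acta1 at 0.18. It also turned in FA-DOXO versus FA-sham for Myh6 at -0.065 and Actc1 at -0.62, and in FA-sham versus sham for Myh7b at 2.03 and Acta1 at 1.55.

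With array weights, 4 of 5 genes passed in DOXO versus sham, 3 in FA-sham versus sham and 3 in the interaction, where 30851, 30685 and 28545 of 34760 clusters passed. The weight of sham mouse 3 was 86.0 and those of the other mice 0.0728 to 4.38, so the sham mean of this fit was in effect that of 1 mouse, and Myh7 in DOXO versus sham was at 0.95. In this fit the sign turned in FA-DOXO versus DOXO for Myh7 at 0.081, and in FA-DOXO versus FA-sham for Actc1 at -0.29. Other turns were in FA-sham versus sham for Myh7 at -0.25, and in the interaction for Myh7 at 0.33 and Myh7b at -0.021.

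With the sham groups merged, Myh7 minus Myh6 was at 2.36 in DOXO versus sham and at 2.55 in FA-DOXO versus FA-sham (adjusted exact permutation p = 0.0107 each). In that comparison of FA-DOXO with all sham mice, the sign turned for Myh6 at -0.49, Actc1 at -0.94 and Acta1 minus Actc1 at 0.44. In an exact test on the absolute difference, chosen after seeing the data, Myh7 minus Myh6 in DOXO versus sham, at 3.63, had an adjusted p of 0.0381 in place of 0.0952.

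The replicate numbers of the labels were not used to pair the samples. Of 26 same-numbered pairs, 12 had a correlation of deviations over 0.1 (range -0.86 to 0.84). These correlations run over all clusters and so carry the array spread, and they cannot show whether the numbers pair mice. With the replicate number as a block, 0 of 5 genes passed in any comparison, Myh7 was at 1.38 in DOXO versus sham and at 1.25 in FA-DOXO versus FA-sham, and Myh7 minus Myh6 was at 3.37 in DOXO versus sham (adjusted permutation p = 0.400). No sham or FA-sham mouse has number 5 or 6, so the DOXO and FA-DOXO mice with these numbers bear on those 2 comparisons only indirectly. Under this block the sign turned in FA-DOXO versus FA-sham for Actc1 at -0.56 and Acta1 minus Actc1 at 0.59.

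When each array was left out in turn, Myh7 stayed between 1.47 and 2.54 in DOXO versus sham, between 1.54 and 2.34 in FA-DOXO versus FA-sham and between 1.76 and 2.30 averaged over both diets. The lowest Myh7 value of DOXO versus sham was that without DOXO mouse 5. Myh7 minus Myh6 ranged between 2.88 and 4.60 in DOXO versus sham and between 0.70 and 1.51 in FA-DOXO versus FA-sham. Signs turned in FA-DOXO versus DOXO for Myh6 (-0.78 to 0.31), Myh7 (-0.65 to 0.59), Acta1 (-0.54 to 0.052) and Acta1 minus Actc1 (-0.12 to 0.72). In FA-DOXO versus FA-sham they turned for Actc1 (-0.39 to 1.24), Acta1 (-0.44 to 0.51) and Acta1 minus Actc1 (-0.73 to 0.081). In FA-sham versus sham, Myh7 ranged between -0.066 and 0.071. In the interaction, Myh7 ranged between -0.65 and 0.59, Myh7b between -0.076 and 0.19 and Acta1 between -0.084 and 1.03. Between 0 and 1 of 5 genes passed in FA-sham versus sham, Myh6 at -3.49 without sham mouse 4 (limma adjusted p = 0.0349), where 42.6% of all clusters passed. The array SD was associated with 4 to 5 genes, and with 81.7% of all clusters when no array was left out. The causes of these changes were not tested.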

Other observations

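Markers of other cells of the ventricle were read in the same fits. Endothelial markers (6 genes) had a median log2 difference of -0.68 in DOXO versus sham, with 0 of 6 past the unadjusted p of 0.01, and of 0.30 in FA-DOXO versus FA-sham. The 12 ventricular cardiomyocyte markers were at -0.95 and 0.73 in these comparisons, with 0 of 12 past it in each. Fibroblast markers (6 genes), collagens among them, were at -0.03 and 0.08, and smooth muscle markers (6 genes) at 0.00 and 0.03. Of 3 erythroid markers, Alas2, which makes haem in developing red cells, was at -0.66 (SE 0.15, limma adjusted p = 0.647) in DOXO versus sham and passed the unadjusted p of 0.01 only. The 4 neutrophil markers, all past that p in DOXO versus sham at a median of 1.08, had 0 of 4 past it in FA-DOXO versus FA-sham, at a median of 0.21, and the difference between these 2 comparisons was not tested for the list. Of all clusters, 1.05% passed that p in DOXO versus sham and 0.268% in FA-DOXO versus FA-sham. The median over all clusters was 0.10 in DOXO versus sham and -0.04 in FA-DOXO versus FA-sham. The mean of the 6 endothelial markers ranged between 7.13 and 9.39 on wide arrays and between 6.64 and 7.19 on narrow ones. Wide arrays were 2 of 6 in FA-DOXO, 2 of 6 in DOXO, 1 of 4 in FA-sham and 3 of 4 in sham mice. Their part in these marker differences was not tested.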
